A study of Mus musculus with 2 samples.

Results

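The macrophages described here were cells of a mouse melanoma labelled with 3 spatial barcodes, in which ZC1 or ZC3 stood above the others once free barcode was allowed for. A macrophage was a cell with at least 5000 CPM (UMIs, or unique transcript tags, per 1000000 UMIs of the cell) of the complement genes C1qa, C1qb and C1qc summed and fewer than 3 UMIs of the CD3 genes. Its region was the barcode whose share of the cell's barcode UMIs, divided by the share of that barcode in free material, was at least 1.5 times that of the next barcode. Kept cells had 1000 or more UMIs, 500 or more genes and no more than 10% of UMIs from mitochondrial genes, and a region needed at least 30 barcode UMIs. Of 4236 cells kept, 2411 were macrophages, 251 of them were given to ZC1 and 701 to ZC3, and these 952 cells make up the comparison. The 245 ZC2 macrophages are given beside them as levels, and the 1214 macrophages with no clear leading barcode were not compared.

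The cells came from tumours of B78ChOVA, a mouse melanoma line that carries mCherry and ovalbumin, grown under the skin of the flank in Matrigel and taken after 16 days. Tumours were cut live into sections, cells in chosen places were given a DNA barcode, and dissociated immune cells were sorted and sequenced as single cells on the 10x Genomics platform. The 2 samples are the gene library and the barcode library of the same cells, so there is 1 replicate and no separate control. All groups here share the tumour line, the day and the sort. Which place in the tumour ZC1, ZC2 or ZC3 marked, how many tumours were used, and the strain, sex and age of the hosts are not stated in the labels.

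With 1 library, no test between regions was possible. The difference is therefore given as the ratio of the summed level in ZC1 cells to that in ZC3 cells, with its 95% interval in parentheses. These intervals cover counting error only, not the spread among cells, sections or tumours.

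Tumour macrophages arise largely from blood monocytes, which enter tissue through the chemokine receptor Ccr2 and then change their genes with the place in which they settle. They take up dead cells, show peptides to CD4 T cells on MHC class II proteins, and release chemokines that call in other leukocytes. Some adopt an alternative activation state, known from wounds and parasite infection, which is marked by Retnla, Ear2, Arg1 and Mrc1.

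The promoters of genes from 3 groups of the comparison are printed here. MHC class II genes were higher in ZC1 and mitotic genes lower. Type I interferon genes had a median below 1 over all cells, which turned at a stricter barcode lead. Each promoter is 170 bases upstream of the RefSeq transcript start on the gene's own strand in GRCm38.p6. In the first 4, capitals mark GATTGG or its reverse complement CCAATC, which holds the CCAAT box bound by NF-Y. Other CCAAT runs, as in Bub1 and Ccnb2, are in small letters and were not counted. In Ifit3, capitals mark GAAA, any 2 bases and GAAA again, or the reverse complement, which is the core of the interferon-stimulated response element bound by ISGF3 and interferon regulatory factors. H2-Aa lies at chr17:34287824-34287993 on the minus strand, H2-Eb1 at chr17:34305697-34305866 on the plus strand, Bub1 at chr2:127831860-127832029 on the minus strand, Ccnb2 at chr9:70421555-70421724 on the minus strand, and Ifit3 at chr19:34583359-34583528 on the plus strand.
H2-Aa: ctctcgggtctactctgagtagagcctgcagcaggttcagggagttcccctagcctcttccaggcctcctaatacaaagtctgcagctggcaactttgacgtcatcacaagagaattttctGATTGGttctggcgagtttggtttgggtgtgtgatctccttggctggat
H2-Eb1: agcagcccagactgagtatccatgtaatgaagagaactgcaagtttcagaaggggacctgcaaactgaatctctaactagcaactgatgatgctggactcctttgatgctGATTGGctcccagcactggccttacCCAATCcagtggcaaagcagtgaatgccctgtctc
Bub1: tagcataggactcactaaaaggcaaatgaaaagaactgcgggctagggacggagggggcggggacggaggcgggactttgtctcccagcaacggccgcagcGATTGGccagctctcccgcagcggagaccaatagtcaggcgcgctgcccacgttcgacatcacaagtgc
Ccnb2: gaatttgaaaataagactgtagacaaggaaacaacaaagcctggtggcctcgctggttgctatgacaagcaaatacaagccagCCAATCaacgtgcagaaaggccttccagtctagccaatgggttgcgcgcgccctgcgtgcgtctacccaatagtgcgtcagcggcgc
Ifit3: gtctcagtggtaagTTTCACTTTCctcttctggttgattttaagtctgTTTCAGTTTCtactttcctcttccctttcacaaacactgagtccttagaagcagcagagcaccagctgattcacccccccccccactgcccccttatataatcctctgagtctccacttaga
These 5 promoters, and the 2 motifs shown, were chosen after 9 motifs had been searched on both strands in the 250 bases before the start. GATTGG was found in 5 of the 6 MHC class II genes matched in the promoter table, in 9 of 12 G2 and M genes, in 0 of 12 type I interferon genes and in 8 of 10 MHC class I genes, against 16.6% of 27025 genes. GATTGG was also in 6 of 11 S phase and 5 of 11 interferon gamma genes. Among other lists it was in 1 of 9 alternative activation, 2 of 14 resident-type, 2 of 14 glycolysis and 3 of 16 hypoxia genes. The interferon core was found in 6 of the 12 type I interferon genes and in 3.46% of all genes. It was also in 6 of 11 interferon gamma genes, a list near level between the regions. Class I had it in 2 of 10 genes and class II in 1 of 6. GATTGG was thus shared by class II and mitotic genes that lay on opposite sides of the comparison. It was also common in class I genes, which differed little between the regions. The other 7 motifs were CTGATTGG (overlapping GATTGG), the interferon core followed by CT (overlapping it), TTTGAA, GGTTTGAA (overlapping TTTGAA), TTC and GAA with any 4 bases between, TTCNNNGAA and ACGTG, found in 4.43%, 0.255%, 18.3%, 1.08%, 6.76%, 8.13% and 18.5% of all genes. Bub1 took the place of Ccnb1, whose promoter held no GATTGG. A match is a run of letters and not evidence of binding.

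The ZC3 barcode was the most abundant of the 3, so the regions are relative. Even in cells given to ZC1, the median share of ZC3 among barcode UMIs (42.8%) was above that of ZC1 (31.5%). Free material, the summed barcodes with 10 to 100 gene UMIs, held 15.6% ZC1, 26.4% ZC2 and 57.99% ZC3. Relative to it, the median ZC1 macrophage held 2.01 times the free share of ZC1 and 0.738 times that of ZC3, and the median ZC3 macrophage 0.358 and 1.35 times. Macrophages made up 37.5% of the 670 kept cells of ZC1 and 64.8% of the 1081 of ZC3, in a sort that can itself set such shares.

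C1qa, which the rule used, was at 5720.1 CPM in ZC1 and 5627 CPM in ZC3. Macrophage genes that the rule did not use were present in both, with Cd68 at 881 and 859 CPM, the F4/80 gene Adgre1 at 458 and 416 CPM and the engulfment receptor gene Mertk at 15.4 and 8.82 CPM. ZC1 cells were shallower, with a median of 23974 UMIs (range 1226 to 97767) against 32771 (1029 to 105405) in ZC3, and summed to 6567693 and 24267644 UMIs. The median mitochondrial share was 3.69% and 3.70%.

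Traces of T cell, NK cell and fibroblast genes were higher in ZC1 macrophages. The 14 T cell genes summed to 20.9 CPM in ZC1 and 8.41 CPM in ZC3, the 8 NK cell genes to 40.3 and 5.73 CPM, and the 8 fibroblast genes to 24.4 and 6.59 CPM. The melanoma genes summed to 98.2 and 76.7 CPM, the dendritic cell genes to 123 and 121 CPM, the B cell genes to 182 and 208 CPM, the endothelial genes to 24.1 and 25.3 CPM and the neutrophil genes to 44.8 and 32.8 CPM, with S100a9, Ly6g and Retnlg at 0 UMIs in both. From the T cell genes other than the CD3 genes and Cd4, free RNA could make up 3.53% of the UMIs of ZC1 macrophages. For ZC3 macrophages it was 1.30%. A UMI of Trac, Trbc1, Trbc2, Cd8a, Nkg7, Gzma, Col1a1, Col3a1 or Sparc was present in 34.3% of ZC1 and 25.1% of ZC3 macrophages. Without those cells, 418 genes were past 1.5-fold higher in ZC1 and 451 lower, of 8551 compared.

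Over all cells, 9416 genes had at least 30 UMIs in both sets together and at least 20 expected in the smaller set, and these were compared. Their median ratio was 0.976. The level was at least 1.5-fold higher in ZC1 for 475 genes (5.04%) and at least 1.5-fold lower for 395 (4.19%), or 9.24% of genes either way. Cycling cells, those with at least 500 CPM of Mki67, Top2a, Cdk1 and Birc5 summed, were less frequent in ZC1, so the comparison was repeated in the 205 ZC1 and 452 ZC3 macrophages below that limit. There, 499 of 8874 genes were past 1.5-fold higher (5.62%) and 281 lower (3.17%), or 8.79% either way. Of 8872 genes compared both times, 373 were past the limit on the higher side in both, of 444 and 498, and 180 on the lower side, of 264 and 281. The balance of the 2 sides was not firm: over all cells, 422 genes were higher and 530 lower once the highest cell of each gene and set was left out, and 551 and 627 with a leading barcode at least 2 times the next. The widest ratios belonged to genes of low or middling level, and the highest of all was that of Retnla.

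**Figure D1:**
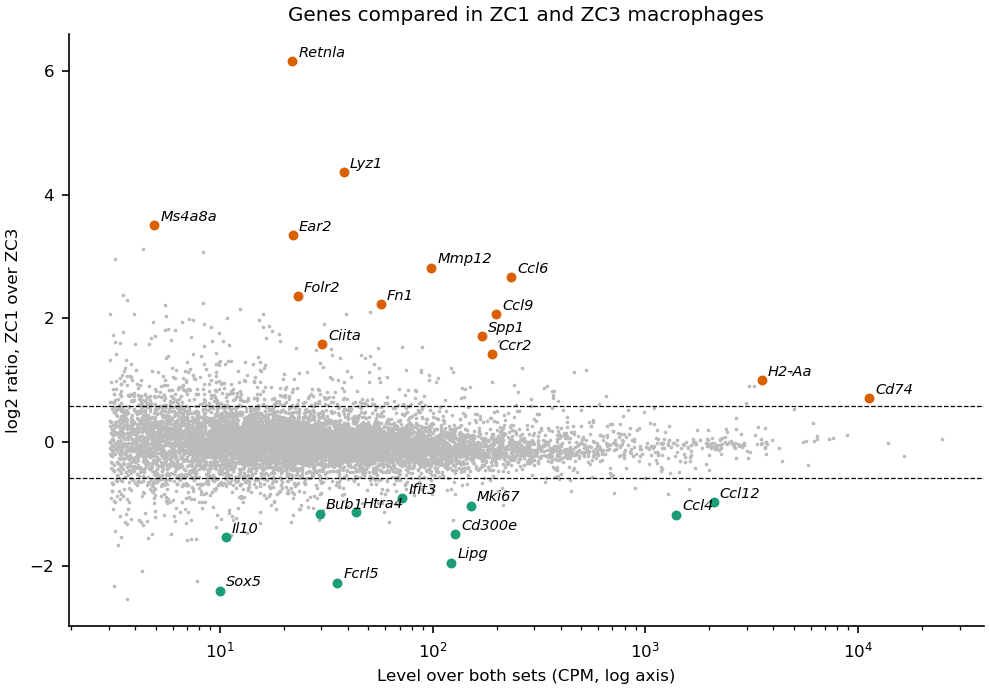
Each point is 1 of the 9416 genes compared, by its level over both sets (CPM, log axis) and the log2 of its ratio of ZC1 to ZC3, with dashed lines at 1.5-fold. Named genes are coloured by the region with the higher level, and Retnla (71.7) stands far above the rest, with Sox5 (0.190) and Fcrl5 (0.207) among the lowest.

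Among the lists of cell states, the widest difference was in alternative activation, and the UMIs of its leading genes, Retnla and Ear2, lay in few cells. Retnla, which encodes the secreted protein RELM-alpha and lies at chr16:48842551-48844461, was at 97.4 CPM in ZC1, 15.3 CPM in ZC2 and 1.36 CPM in ZC3. It had 640 UMIs in ZC1 and 33 in ZC3, a ratio of 71.7 (50.5 to 105). That ratio was 53.99 without the highest cell of each set, 34.9 without cells that held a T, NK or fibroblast UMI and 15.5 with a leading barcode at least 3 times the next. Lyz1, a lysozyme gene at chr10:117287797-117292868, is not in the alternative activation list and was named for its ratio. It was at 151 CPM in ZC1, 33.6 CPM in ZC2 and 7.33 CPM in ZC3, a ratio of 20.6 (17.6 to 24.3). Ear2, an eosinophil-associated ribonuclease gene at chr14:44102654-44103534, was at 75.5 CPM in ZC1, 24.5 CPM in ZC2 and 7.46 CPM in ZC3, a ratio of 10.1 (8.52 to 12.1). All 3 followed the order ZC1, ZC2, ZC3. Macrophages with no region held 20.8 CPM of Retnla, 39.5 CPM of Lyz1 and 16.2 CPM of Ear2.

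Retnla UMIs were in 26 of 251 ZC1 macrophages, and 2 of these cells held at least 50% of them, the highest with 187 UMIs. In ZC3, 31 cells held a Retnla UMI and none more than 2. After each cell was thinned to 5000 UMIs, the share with Retnla was 7.23% in ZC1, 0.867% in ZC3 and 0.898% in T cells, which should lack it, and 10.4% and 4.42% in ZC1 and ZC3 before thinning. The thinned ZC3 share was thus close to that of T cells. Retnla was at 545 CPM in free RNA, and the part of free RNA in the Retnla UMIs of either region was not tested. Lyz1 was spread over more cells, in 14.04% of thinned ZC1 cells against 2.02% in ZC3 and 1.20% in T cells (25.5% and 10.1% in ZC1 and ZC3 before thinning). For the linked gene Lyz2, a close copy of Lyz1 with which reads may be confused and which was named after its values were seen, the levels were 8396 CPM in ZC1, 7988 CPM in ZC2 and 3825 CPM in ZC3, a ratio of 2.20 (2.17 to 2.22). Thinned shares left out 16 ZC1 and 9 ZC3 macrophages with fewer than 5000 UMIs, and the T cells had a median of 6637 UMIs before thinning.

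The UMIs of these genes lay in a limited set of cells. Macrophages with at least 200 CPM of the 3 genes summed, a limit set after the values were seen, made up 53 of 251 cells in ZC1 (21.1%, interval 16.2 to 26.7%). They made up 8.57% in ZC2, 6.18% of cells with no region, and 13 of 701 in ZC3 (1.85%, 0.991 to 3.15%). In ZC1 they held, beside the genes that define them, 72.4% of Spp1 UMIs, 69.5% of Fn1, 63.1% of Ccl6, 53.2% of Mmp12 and 43.6% of Folr2. These cells were no deeper than the rest, with a median of 21006 UMIs against 24946. With them left out of both regions, 312 genes were past 1.5-fold higher and 266 lower in ZC1, of 9112. The ratio was then 1.53 for Retnla, 1.45 for Lyz1 and 2.74 for Ear2, a fall that the choice of the cells by these genes fixed. It was 1.16 for Spp1 and 1.80 for Fn1, but still 4.98 for Ms4a8a, 5.07 for Mmp12, 3.58 for Ccl6 and 3.57 for Folr2.

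Across the whole list of alternative activation, 9 of 11 genes compared were past 1.5-fold higher in ZC1 and 0 lower, where 5.04% and 4.19% of all genes were, with a median ratio of 2.86, or 2.25 without cycling cells and 1.80 without the cells high in Retnla, Ear2 and Lyz1. The lectin genes Mgl2 and Clec10a were among them. Mgl2 was at 113 CPM in ZC1 and 39.6 CPM in ZC3, a ratio of 2.86, and Clec10a at 41.1 CPM in ZC1 and 13.2 CPM in ZC3, a ratio of 3.11. Arg1, the arginase that depletes arginine, was at 154 CPM in ZC1, 67.3 CPM in ZC2 and 70.01 CPM in ZC3, a ratio of 2.19 (2.03 to 2.37). The mannose receptor gene Mrc1 was at 168 CPM in ZC1 and 85.3 CPM in ZC3, a ratio of 1.97. The receptor of the inducing cytokines was level: Il4ra was at 89.99 CPM in ZC1 and 90.2 CPM in ZC3, a ratio of 0.997 (0.909 to 1.09). Chil3 was also within the limit, with a ratio of 1.32, or 0.466 without the highest cell of each set.

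Genes of resident-type macrophages were also higher in ZC1 (median ratio 1.95). Past 1.5-fold, 8 of 11 members compared were higher and 0 lower, where 5.04% and 4.19% of all genes were. Folr2, the folate receptor that marks perivascular and resident macrophages, was at 63.2 CPM in ZC1, 32.9 CPM in ZC2 and 12.3 CPM in ZC3, a ratio of 5.15 (4.42 to 5.99). Cbr2, a carbonyl reductase gene, was at 31.7 CPM in ZC1, 13.2 CPM in ZC2 and 7.13 CPM in ZC3, a ratio of 4.44 (3.61 to 5.47), and F13a1, the coagulation factor XIII subunit, at 97.6 CPM in ZC1, 72.1 CPM in ZC2 and 23.1 CPM in ZC3, a ratio of 4.22 (3.76 to 4.74). With a leading barcode at least 3 times the next these ratios were 12.004 and 22.2, and without the cells high in Retnla, Ear2 and Lyz1 2.81 and 2.93. The growth factor gene Igf1 had a ratio of 2.32, the selenium carrier Selenop 1.78 and the phagocytic bridge Gas6 1.81. The most restricted markers were scarce: Lyve1 had 47 UMIs in ZC1, in 5 cells, and 0 in ZC3, which allows up to 0.124 CPM, and Cd209f 36 UMIs in 3 cells and 0. Ms4a8a, a membrane protein gene of the MS4A family, was at 17.4 CPM in ZC1 and 1.52 CPM in ZC3, a ratio of 11.4 (7.80 to 16.97), and was in 9.36% of thinned ZC1 cells against 0.867% in ZC3.

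Chemokines split into 2 groups. Ccl6 and Ccl9, neighbouring genes at chr11:83587882-83593087 and chr11:83572919-83578636 whose products act on the receptor Ccr1, were higher in ZC1. Ccl6 was at 692 CPM in ZC1, 246 CPM in ZC2 and 109 CPM in ZC3, a ratio of 6.37 (6.07 to 6.68), and Ccl9 at 494 CPM in ZC1, 192 CPM in ZC2 and 117 CPM in ZC3, a ratio of 4.21 (3.9997 to 4.43). A UMI of Ccl6 was present in 51.5% of thinned ZC1 cells, 26.9% in ZC3 and 10.5% of T cells (79.7% and 69.6% in ZC1 and ZC3 before thinning). Ccl9 was in 57.4% of thinned ZC1 cells, 31.9% in ZC3 and 9.88% of T cells (81.3% and 67.5% in ZC1 and ZC3 before thinning). The neutrophil-attracting Cxcl1 (3.37) and Cxcl2 (3.09) and the platelet factor Pf4 (1.95) were past the limit on the same side. On the other side were the inflammatory chemokines Ccl4 and Ccl3, and Ccl12 and Ccl7, ligands of Ccr2, with Cxcl14. Ccl4 was at 701 CPM in ZC1, 702 CPM in ZC2 and 1576 CPM in ZC3, a ratio of 0.444 (0.431 to 0.458), and Ccl12 at 1186 CPM in ZC1, 774 CPM in ZC2 and 2329 CPM in ZC3, a ratio of 0.509 (0.497 to 0.522). The ratios were 0.577 for Ccl3, 0.593 for Ccl7 and 0.580 for Cxcl14. ZC2 cells held less Ccl12 and Ccl7 (617 CPM against 1037) than ZC1 cells did, so ZC3 stood apart from both. Of 16 chemokines compared, 5 were past 1.5-fold higher and 5 lower, where 5.04% and 4.19% of all genes were. The interferon-induced Cxcl9 (0.843) and Cxcl10 (0.729), which attract T cells, were within that limit.

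**Figure D2:**
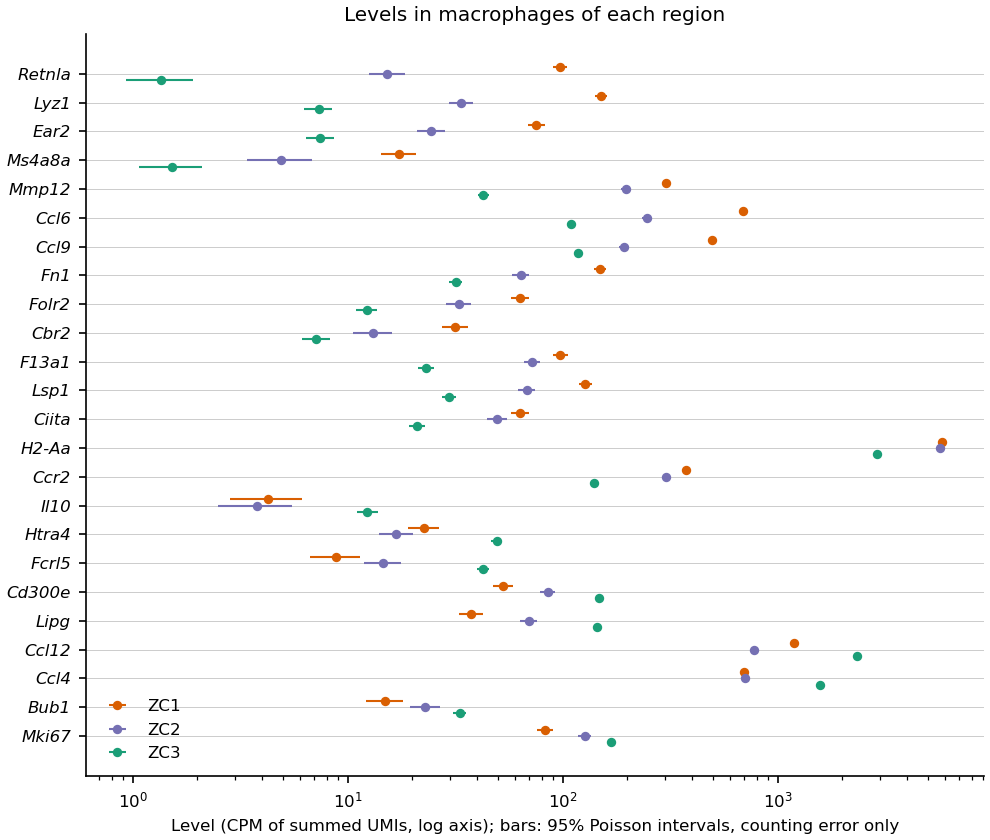
Level of named genes (CPM, log axis) in the macrophages of ZC1, ZC2 and ZC3, as points with 95% Poisson intervals that cover counting error only. From Retnla to Ccr2 the ZC1 level is above that of ZC3, from Il10 to Mki67 below it, and ZC2 lies between them for many genes but beside ZC1 for H2-Aa and Ccl4.

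Antigen presentation on MHC class II was higher in ZC1 across the list. Past 1.5-fold higher were 6 of 8 genes compared, against 5.04% of all genes, and the rest were within that limit. Summed, the list was at 36964 CPM in ZC1, 36698 in ZC2 and 22084 in ZC3, so ZC2 resembled ZC1. Ciita, the activator that turns these genes on, was at 63.2 CPM in ZC1, 49.6 CPM in ZC2 and 21.1 CPM in ZC3, a ratio of 2.995 (2.62 to 3.42). H2-Aa, whose promoter is printed above, was at 5806 CPM in ZC1, 5707 CPM in ZC2 and 2885 CPM in ZC3, a ratio of 2.01 (1.99 to 2.04). The ratio was 1.88 for H2-Ab1, 1.87 for H2-Eb1, 1.64 for the invariant chain Cd74, 1.64 for the peptide editor H2-DMa and 1.44 for its partner H2-DMb1. The list's median was 1.75 over all cells and 1.65 without cycling cells. MHC class I genes were near level, with 0 of 12 past 1.5-fold and a median of 1.13. Of the costimulatory genes, Cd86 (1.70) and the PD-1 ligand Pdcd1lg2 (1.95) were past the limit, while Cd274, the gene of PD-L1, had a ratio of 1.24 and Cd40 1.11.

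Of 8 genes of classical monocytes compared, 4 were past 1.5-fold higher in ZC1 and 0 lower, where 5.04% and 4.19% of all genes were. Ccr2, the receptor that brings monocytes into tissue, was at 376 CPM in ZC1, 301 CPM in ZC2 and 140.2 CPM in ZC3, a ratio of 2.68 (2.54 to 2.82). Plac8 (2.30) and F10, the coagulation factor X gene (3.94, interval 3.27 to 4.74), were also past the limit, F10 with 2.07 without the cells high in Retnla, Ear2 and Lyz1 and 9.82 with a leading barcode at least 3 times the next. However, Ly6c2, the classical marker, was at 47.7 CPM in ZC1 and 32.6 CPM in ZC3, a ratio of 1.46 (1.28 to 1.67). A Ly6c2 UMI was present in 20.3% of ZC1 and 14.7% of ZC3 cells, and without those cells the Ccr2 ratio was 3.07. Genes of the patrolling, nonclassical monocyte lay on both sides: Cd300e had a ratio of 0.359 and Spn 0.459, while Treml4 had 1.90 and Nr4a1 2.06. Among growth factor and chemokine receptors, the shared chain Csf2rb was at 91.97 CPM in ZC1 and 47.02 CPM in ZC3, a ratio of 1.96, Csf1r had 1.47 and Cx3cr1 0.864. The transcription factor genes Bhlhe40 (2.57, interval 2.32 to 2.86) and Klf4 (2.25, interval 2.07 to 2.45) were the highest of their list, and Pparg (0.650) and Bhlhe41 (0.665) the lowest.

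Matrix and lipid genes were higher in ZC1 for some members only. Mmp12, the macrophage elastase gene, was at 302 CPM in ZC1, 198 CPM in ZC2 and 42.8 CPM in ZC3, a ratio of 7.06 (6.54 to 7.62), with 28.04% of its ZC1 UMIs in the highest cell and a ratio of 6.15 when that cell of each set was left out. Fn1, fibronectin, was at 149.5 CPM in ZC1, 63.7 CPM in ZC2 and 31.8 CPM in ZC3, a ratio of 4.71 (4.28 to 5.18), and Thbs1, thrombospondin, had 3.97 (3.02 to 5.23). Of the matrix list, 4 of 12 were past the limit on the higher side, where 5.04% of all genes were. Tgfbi, the most abundant gene of the list, had a ratio of 0.729. The list's median was 1.45, but 0.820 with a leading barcode at least 3 times the next. Of 15 lipid-associated genes, 7 were past it, among them Cd36, a fatty acid transporter (2.64, interval 2.38 to 2.92), Gpnmb (2.37) and Fabp5 (1.84), but not the lipid-sensing receptor Trem2 (1.07). Spp1, osteopontin, had a ratio of 3.29 (3.11 to 3.47), or 1.41 without the highest cell of each set, and 0.546 with a leading barcode at least 3 times the next. Of 11 scavenger receptor genes analysed, 8 were compared and 4 were past the limit, among them Clec4n (2.05). Lysosomal enzymes were close to level, with a median of 1.13.

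A further set of genes with high ratios is shared with lymphocytes. Lsp1 was at 127 CPM in ZC1 and 29.6 CPM in ZC3 (4.30, interval 3.89 to 4.76), Hopx at 21.9 CPM in ZC1 and 4.62 CPM in ZC3 (4.75) and Glipr2 at 17.97 CPM in ZC1 and 4.57 CPM in ZC3 (3.93). In thinned T cells a UMI of Lsp1 was present in 91.6%, of Hopx in 63.5% and of Glipr2 in 41.9%, against 29.8%, 8.94% and 7.23% in ZC1 macrophages. Without the cells that held a T, NK or fibroblast UMI their ratios were 4.36, 4.40 and 4.23. Ptafr, the receptor of platelet-activating factor (4.21, interval 3.51 to 5.05), and the early growth response gene Egr2 (3.995, interval 3.20 to 4.98) were high in ZC1 and rare in T cells, at 3.59% and 2.10%.

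Immediate early and stress genes, which rise during tissue dissociation, were higher in ZC1 as well. Of 16 genes, 10 were past 1.5-fold higher, against 5.04% of all genes, and the median was 1.54. Fosb was at 155 CPM in ZC1, 81.5 CPM in ZC2 and 69.3 CPM in ZC3, a ratio of 2.24 (2.07 to 2.43), and Egr1 had a ratio of 2.05. Hsp90aa1 (0.877) and Hspa8 (1.03) were level. The part of this group in the differences of Klf4, Cxcl1, Cxcl2 and other rapidly induced genes was not tested.

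Inflammatory cytokine genes lay on both sides. Past the limit, 5 of 12 were higher in ZC1 and 1 lower, where 5.04% and 4.19% of all genes were. The list's median was 1.33, or 0.936 in cells thinned to 1000 UMIs. Without cycling cells 2 were past the limit higher and 2 lower, where 5.62% and 3.17% of all genes were. The list's median there was 1.09. Il1b was at 103 CPM in ZC1, 94.6 CPM in ZC2 and 49.4 CPM in ZC3, a ratio of 2.08 (1.89 to 2.29), and Osm had 2.44 (2.02 to 2.94). Tnf, by contrast, had 0.893 (0.817 to 0.974). Il10, the main anti-inflammatory cytokine of macrophages, was at 4.26 CPM in ZC1, 3.78 CPM in ZC2 and 12.4 CPM in ZC3, a ratio of 0.345 (0.225 to 0.509), on 28 UMIs in ZC1 and 300 in ZC3. Nos2 had a ratio of 1.80 over all cells but 0.310 without cycling cells and 0.641 once the highest cell of each set was left out.

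Among the genes lowest in ZC1, Fcrl5, Cd300e and Lipg had UMIs in many ZC3 cells. Fcrl5, an Fc receptor-like gene at chr3:87435773-87500678, was at 8.83 CPM in ZC1, 14.6 CPM in ZC2 and 42.6 CPM in ZC3, a ratio of 0.207 (0.156 to 0.270). A UMI of it was present in 15.6% of thinned ZC3 cells, 2.98% in ZC1 and 0 of 334 T cells, which allows up to 0.898%. Before thinning the shares were 37.2% and 11.6%. Fcrl5 marks B cells in other settings, and the summed B cell genes were at 182 CPM in ZC1 and 208 CPM in ZC3. Of the 2 B cell genes compared, Cd79b had a ratio of 0.627, past the limit on the same side as Fcrl5, and Ighm 0.975. The part of B cell RNA in the Fcrl5 ratio was not tested. Cd300e, an activating receptor gene of monocytes at chr11:115051917-115062177, was at 52.7 CPM in ZC1, 85.1 CPM in ZC2 and 147 CPM in ZC3, a ratio of 0.359 (0.320 to 0.400), and was in 33.4% of thinned ZC3 cells against 14.04% in ZC1 (59.9% and 29.5% before thinning). Lipg, endothelial lipase, was at 37.6 CPM in ZC1, 69.6 CPM in ZC2 and 145 CPM in ZC3, a ratio of 0.260 (0.227 to 0.296), with 29.96% of its ZC1 UMIs in 1 cell, and a ratio of 0.145 (0.106 to 0.195) without cycling cells. Of the 3 endothelial genes compared, the receptor genes Kdr and Flt1 had ratios of 0.418 (on 13 UMIs in ZC1 and 115 in ZC3) and 1.28, and Pecam1 had 0.823; the part of endothelial RNA in the Lipg ratio was not tested.

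Others at the low end were scarcer. Sox5, a transcription factor gene, had 15 UMIs in ZC1 and 292 in ZC3, a ratio of 0.190 (0.105 to 0.318). Htra4, a serine protease gene, was at 22.5 CPM in ZC1, 16.8 CPM in ZC2 and 49.4 CPM in ZC3, a ratio of 0.456 (0.382 to 0.542), and its relative Htra1 had a ratio of 0.344 (0.173 to 0.621). Edn1, endothelin, had 0.387 (0.253 to 0.573), the zinc transporter gene Slc39a8 0.358 (0.200 to 0.599) and the formyl peptide receptor gene Fpr1 0.445 (0.298 to 0.643), or 0.256 without cycling cells. Asparagine synthetase, Asns, had 0.565 (0.384 to 0.809) and the mitochondrial kinase gene Ak4 0.570 (0.372 to 0.846). Other than Htra4, these genes had between 12 and 35 UMIs in ZC1. The ratio was 0.336 for the phosphatase gene Ptprm, 0.339 for the semaphorin gene Sema4c, 0.339 for Enkd1, 0.356 for the sulfotransferase gene Ust and 0.398 for the histone gene Hist1h1a. Xcr1, a dendritic cell receptor gene, had 0.603, with 50% of its ZC1 UMIs in 1 cell.

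Cell division genes were lower in ZC1. Cycling cells made up 18.3% of ZC1 macrophages (interval 13.7 to 23.7%), 22.4% in ZC2 and 35.5% in ZC3 (31.97 to 39.2%). In cells thinned to 5000 UMIs the shares were 16.6%, 26.1% and 34.4%, so the order was the same at equal depth. Of 14 G2 and M genes, 12 were past 1.5-fold lower and 0 higher, where 4.19% and 5.04% of all genes were, with a median ratio of 0.594. The mitotic checkpoint kinase gene Bub1 was at 14.9 CPM in ZC1, 22.96 CPM in ZC2 and 33.2 CPM in ZC3, a ratio of 0.449 (0.360 to 0.555), and the proliferation marker Mki67 at 82.8 CPM in ZC1, 126 CPM in ZC2 and 169 CPM in ZC3, a ratio of 0.491 (0.448 to 0.537). Ccnb2, cyclin B2, had 0.656 (0.580 to 0.740). Among the DNA repair genes, Fanci had 0.236 (0.0999 to 0.481) on 8 ZC1 UMIs and Brca1 0.352 (0.234 to 0.513). S phase genes were lower by less, with 2 of 12 past the limit, a median of 0.704 and Rrm2, a ribonucleotide reductase subunit, the lowest (0.553, interval 0.491 to 0.621).

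Among cycling cells alone, the G2 and M genes were near level, with a median ratio of 0.976. The genes that chose these cells, Mki67, Top2a, Cdk1 and Birc5, are in this list, so the limit partly fixed that value. In cells below the limit the median was 0.635, but these levels are low, since the limit itself removes cells with the genes. In the repeat without cycling cells the median was also 1.73 for resident-type genes, 1.60 for stress genes and 0.707 for type I interferon genes.

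**Figure D3:**
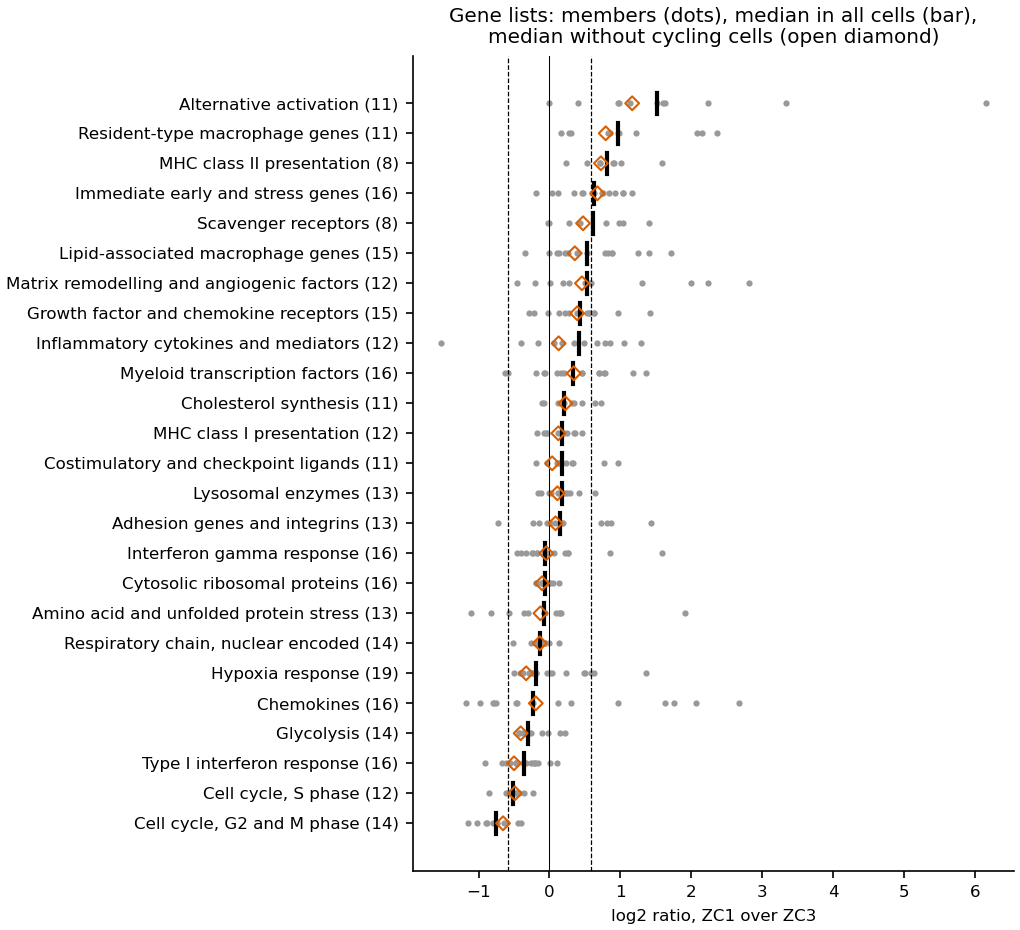
Each row is a gene list, with the number of members compared in parentheses, and each dot the log2 ratio of ZC1 to ZC3 of 1 member. Bars are medians over all cells, open diamonds medians without cycling cells, and dashed lines 1.5-fold: alternative activation lies highest (2.86) and the G2 and M genes lowest (0.594).

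No gene of glycolysis, the breakdown of glucose, was past 1.5-fold over all cells, where 5.04% of all genes were higher and 4.19% lower. Without cycling cells 1 of 14 was lower, where 3.17% of all genes were. Over all cells 2 of 14 lay above a ratio of 1, with a median of 0.811 against 0.976 for all genes. The glycolysis median was 0.711 with a leading barcode at least 2 times the next and 0.601 with one at least 3 times. Ldha, lactate dehydrogenase, was at 1349 CPM in ZC1, 1265 CPM in ZC2 and 1809 CPM in ZC3, a ratio of 0.746 (0.729 to 0.763), and Tpi1 had 0.741 (0.721 to 0.762). The hypoxia list was mixed over all cells, with a median of 0.881. The target gene Ndrg1 had 0.704 (0.625 to 0.791) and the oxygen sensor gene Egln1 0.751, while Vegfa had 1.49 and Hilpda 1.54. With a leading barcode at least 2 times the next, the hypoxia median was 0.769. At a lead of at least 3 times it was 0.552, and the Hilpda ratio was 0.633. The respiratory chain (0.912), ribosomal proteins (0.954), cholesterol synthesis (1.15), amino acid stress (0.947) and adhesion genes (1.11) lay near the median of all genes, although the cystine transporter gene Slc7a11 had 3.75 (2.92 to 4.82) and the integrin gene Itgb7 2.70.

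Of 16 type I interferon genes compared, 3 were past 1.5-fold lower in ZC1 and 0 higher, where 4.19% and 5.04% of all genes were, with a median of 0.781. Without cycling cells 6 were lower, where 3.17% of all genes were. Ifit3, whose promoter is printed above, was at 42.6 CPM in ZC1, 41.2 CPM in ZC2 and 79.8 CPM in ZC3, a ratio of 0.534 (0.470 to 0.606). The antiviral gene Rsad2 had 0.629 (0.547 to 0.721) and Isg15 0.656 (0.610 to 0.706). Summed, the list was at 1221 CPM in ZC1, 1036 CPM in ZC2 and 1537 CPM in ZC3. With a leading barcode at least 2 times the next, the list's median was 0.770, the Ifit3 ratio 0.406 and the Rsad2 ratio 0.695. The direction turned at the stricter limit: with a leading barcode at least 3 times the next, in 50 ZC1 and 148 ZC3 cells, the list's median was 1.03, the Ifit3 ratio 1.34 and the Rsad2 ratio 1.48. Without cells that held a T, NK or fibroblast UMI, the list's median was 0.961, the Ifit3 ratio 0.798 and the Rsad2 ratio 0.985. Interferon gamma genes were near level (median 0.956).

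The main differences were compared with sets of cells left out. Fcrl5 had a ratio of 0.241 without the cells high in Retnla, Ear2 and Lyz1 and 0.193 in cells with 10000 to 50000 UMIs. For H2-Aa these ratios were 1.84 and 1.90, and for Ccr2 2.22 and 2.42. Cells within that range of UMIs were not matched in depth between the regions. Of 83 named genes past the limit that could be compared, 39 moved by more than 1.5 times with a leading barcode at least 3 times the next, 32 of them away from 1. Of 87, 26 did so with a lead of at least 2 times (24 away from 1). Without the cells high in Retnla, Ear2 and Lyz1, 11 did, all toward 1. These 3 genes were among the 11, and the choice of the cells by them fixed their fall. Ear2 had 23.4 at the 3-fold lead.

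**Figure D4:**
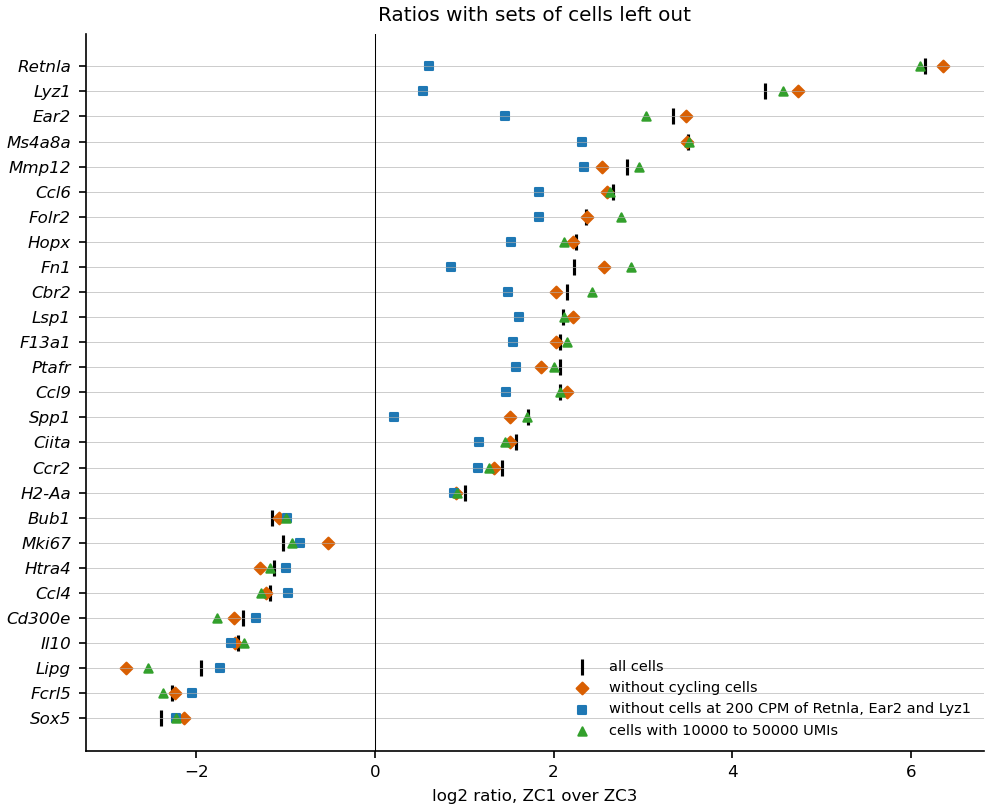
The log2 ratio of ZC1 to ZC3 of named genes over all cells (vertical tick), without cycling cells (diamond), without cells at 200 CPM or more of Retnla, Ear2 and Lyz1 (square) and in cells of 10000 to 50000 UMIs (triangle). The squares of Retnla (1.53) and Lyz1 (1.45, as ratios) lie far left of the ticks, these 2 genes being among the 3 that define the cells left out.

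Levels were also set out by how far the leading barcode stood above the next. In ZC1 cells with a lead of 1.5 to 2, 2 to 3 and over 3 times (117, 84 and 50 cells), Lyz1 was at 118, 163 and 239 CPM and the summed class II genes at 34082, 37084 and 46392 CPM. The summed G2 and M genes were at 1301, 591 and 386 CPM. Retnla had no such order (61.9, 198 and 22.004 CPM), nor Mmp12 (218, 537 and 131 CPM). In ZC3 cells (303, 250 and 148), Fcrl5 was at 34.3, 45.7 and 54.4 CPM and Lipg at 89.4, 152 and 248 CPM. Just outside the limit, 122 cells led by ZC1 held 45.6 CPM of Lyz1 and 241 CPM of Ccl6, and 218 cells led by ZC3 held 69.8 and 128 CPM. For class II, the levels just outside were 32989 and 25914 CPM, nearer to each other than within the regions.

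**Figure D5:**
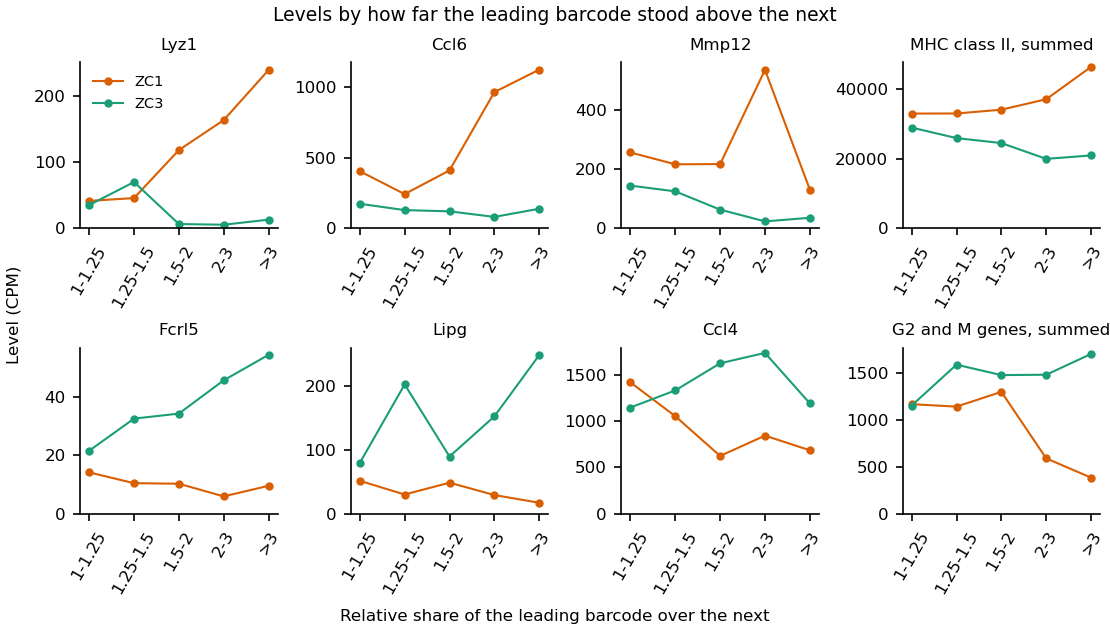
Level (CPM) of 6 genes and 2 summed lists in macrophages led by ZC1 or ZC3, by the ratio of the relative share of the leading barcode to the next (5 classes, those above 1.5 being given a region). The lines of class II and Fcrl5 draw apart from class to class, those of Lyz1 cross in the second class and those of Ccl6 come nearer there before both part, while Mmp12 peaks at 2 to 3 in ZC1 (537 CPM).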

How the data were processed

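Per the submitters' processing notes, the tool was Cell Ranger 4.0.0 and the build mm10, with no settings stated there. The deposited table of UMI counts was not filtered for cells and covered 31055 gene features and the spatial barcodes in 6794880 cell barcodes, as whole numbers, with the kind of each feature per the file headers. It held 117528298 gene UMIs and 14355102 barcode UMIs, and cells and regions were taken from it as described above. No doublet caller was run and no doublet was removed. The free profile was the sum of 68497 barcodes. UMIs were summed over the cells of a region and divided by their total (CPM). Levels have exact Poisson intervals, ratios exact conditional binomial intervals and shares Clopper-Pearson intervals, all at 95% and for counting error only. The floor for a count of 0 was 3 counts per set of cells. Scripts used Python 3.11.15 with numpy 2.4.6, scipy 1.17.1, pandas 2.3.3 and matplotlib 3.10.9. The ratio and region rules were run on simulated data. Every simulated cell held the same added share of its own barcode, so that run cannot tell how often real cells with a weak lead were placed rightly. Gene positions are from GENCODE M21, and promoters from RefSeq GRCm38.p6.

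The members and gene lists were chosen with earlier results of these data known. Named genes were those compared with at least 100 UMIs in the higher set, UMIs in at least 10% of its cells and under 20% of UMIs in 1 cell: the 15 with the highest and the 15 with the lowest ratio, 10 and 10 in the repeat, from each list the 2 genes at either end, and the genes of the rule. List members did not have to meet these limits: Retnla, Ear2, Mmp12, Spp1, Nos2 and others had over 20% of their ZC1 UMIs in 1 cell, and 1 gene that the rule named is not reported here. Other members of a list were named after their values were seen. Alternatives varied the limits on cells, the region rule, depth, free RNA, cell sets left out and the gene filter. The T cells used as background were 481 kept cells.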

Additional observations from a re-analysis of the deposited data

How the results depend on the processing

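Over all cells 475 genes were higher in ZC1 and 395 lower, and without cycling cells 499 and 281. Counts not listed here stayed within 1.5 times these. Of the lists, 11 were higher in ZC1 (a median ratio of ZC3 to ZC1 of at most 0.8) and 3 lower (a median ratio of ZC1 to ZC3 of at most 0.8), and 10.4% of macrophages were given to ZC1 and 29.1% to ZC3. Where a value below differs, the cause was not tested. With a leading barcode at least 2 times the next, genes past the limit were over all cells 627 lower, macrophages given a region were 5.56% to ZC1 and 16.5% to ZC3, the lists by median were 6 lower in ZC1, and ratios that turned were Nos2 0.262. With raw barcode counts (20 ZC1 and 1803 ZC3 cells), genes past the limit were over all cells 112 higher and 197 lower and without cycling cells 76 higher and 168 lower, macrophages given a region were 0.830% to ZC1 and 74.8% to ZC3, the lists by median were 6 higher in ZC1 and 5 lower in ZC1, and ratios that turned were type I interferon 1.16, inflammatory cytokines 0.877, Thbs1 0.901, Il1b 0.234, Slc7a11 0.759, Slc39a8 1.07, Spp1 0.471, Hilpda 0.377, Pparg 1.30, Nkg7 0.720, Xcr1 1.92, Sparc 0.655, Rsad2 2.21, Fpr1 1.15 and Ifit3 2.55. With cells thinned to 1000 UMIs, genes past the limit were over all cells 95 higher and 186 lower and without cycling cells 81 higher and 120 lower, the lists by median were 6 higher in ZC1, and ratios that turned were inflammatory cytokines 0.936 and Rsad2 1.02. With genes of 3 expected UMIs in the smaller set, genes past the limit were over all cells 821 higher and 605 lower and without cycling cells 781 higher and 463 lower. With genes of 100 expected UMIs, genes past the limit were over all cells 194 higher and 169 lower and without cycling cells 176 higher and 92 lower. At a ratio of at most 0.8, or of its inverse,, genes past the limit were over all cells 1211 higher and 1257 lower and without cycling cells 1293 higher and 1105 lower. At 2-fold, genes past the limit were over all cells 161 higher and 78 lower and without cycling cells 146 higher and 54 lower. Without the cells high in Retnla, Ear2 and Lyz1, genes past the limit were over all cells 312 higher and without cycling cells 313 higher. With the free profile from barcodes of more than 100 and up to 500 UMIs (60 and 1144 cells), genes past the limit were without cycling cells 304 higher, macrophages given a region were 2.49% to ZC1 and 47.4% to ZC3, the lists by median were 6 lower in ZC1, and ratios that turned were matrix and angiogenic 0.688, Hilpda 0.524, Sparc 0.729, Nos2 0.137 and Ifit3 1.01. With a leading barcode at least 3 times the next, macrophages given a region were 2.07% to ZC1 and 6.14% to ZC3, the lists by median were 5 lower in ZC1, and ratios that turned were type I interferon 1.03, matrix and angiogenic 0.820, Spp1 0.546, Hilpda 0.633, Rsad2 1.48 and Ifit3 1.34. Without cycling cells, the lists by median were 5 lower in ZC1, and ratios that turned were Nos2 0.310. With at most 5% mitochondrial UMIs, the lists by median were 5 lower in ZC1. With every cell weighted equally, the lists by median were 5 lower in ZC1, and ratios that turned were Rsad2 1.44. Without cells of 100 CPM of melanoma genes, the lists by median were 7 lower in ZC1, and ratios that turned were Hilpda 0.955 and Nos2 0.273. Without the highest cell of each gene, the lists by median were 5 lower in ZC1, and ratios that turned were Nos2 0.641. Without cells with a T, NK or fibroblast UMI, ratios that turned were Il1r2 0.927 and Nos2 0.592. Only lists past their limit, and named genes past 1.5-fold with an interval clear of 1, were counted as turning: 6 list medians and 30 gene ratios did, in 15 of 87 such genes. Over lists and named genes, 141 and 903 other values moved beyond their interval, and 467 and 2267 did not. Of the other 66 named genes, 32 crossed 1 under some alternative, among them Chil3 (1.32, or 0.385 without the cells high in Retnla, Ear2 and Lyz1) and Cxcl10 (0.729, or 1.37 with a leading barcode at least 3 times the next). After subtraction of free RNA no ratio could be given for Retnla or Nkg7, nor for Retnla with raw barcode counts, nor for Nkg7 in cells thinned to 1000 UMIs or without cells with T, NK or fibroblast UMIs. The alternatives that left out cells by Retnla, Ear2 and Lyz1 or by T, NK and fibroblast UMIs, the limits for lists, the thinning to 5000 UMIs, the classes of barcode lead and the promoters were chosen after seeing the data. No paired analysis was possible because the genes and barcodes came from 1 library each of the same cells. The spread between tumours is unknown, the regions rest on shares relative to free barcodes, macrophages with no clear lead were left out, and ZC1 had fewer and shallower cells than ZC3.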

Other observations

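A few genes outside the accounts above were singled out after their values were seen. Ccr7, the homing receptor of migratory dendritic cells, had 56 UMIs in ZC1 macrophages and 7 in ZC3, with 87.5% of the ZC1 UMIs in 1 of 4 cells. The NK cell genes Ncr1 and Klre1 had 19 and 27 UMIs in ZC1, in 5 and 6 cells, against 2 and 7 UMIs in ZC3. Of the 2 reporter features of the reference, mVenus had 0 UMIs in ZC1 and 5 in ZC3, and dsredexpress1 0 and 1, which allows up to 0.457 CPM of each in ZC1. The level of dsredexpress1 in T cells of the same libraries was 44.8 CPM.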
